A study of Homo sapiens with 8 samples.

Results

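Long noncoding RNAs with a LINC symbol, the systematic name given to long RNAs that lie mostly between protein-coding genes and hold no long reading frame, were followed in HCT116 cells, a human colorectal cancer line. The genes were chosen by their symbol, LINC followed by digits alone, and selected on their own measured level, a mean of at least 0.5 CPM (a gene's count relative to the total of its library) over all 8 libraries. Of 964 LINC symbols among the 35394 genes of the count table, 150 reached that level. The rule leaves out 1 of them by name, which is not analysed here, so that 149 RNAs are described. A further 814 LINC symbols lay under 0.5 CPM, and 244 symbols had no count in any library.

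The 4 tested libraries came from cells treated for 24 h with Pien Tze Huang (PZH), a formula of traditional Chinese medicine, and the 4 others from cells given DMSO, the solvent control. Labels for both groups name the same line, describe it as epithelial and give a RAS mutation as its genotype. The labels do not give the dose of PZH, the time in DMSO or whether a replicate is a separate culture, so p-values measure the spread between these samples, which may be technical. The study's title ties PZH to reactive oxygen species and to the growth of colorectal cancer.

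As background, a long noncoding RNA can act on the gene beside it in cis, through the RNA itself or through the act of transcribing it, or elsewhere in the cell by binding proteins, chromatin or microRNAs. Many are transcribed in few cell types and at low levels, and a few symbols named as noncoding hide short reading frames that are translated. In colon cancer cells many LINC RNAs have been studied as growth or metastasis factors, while for most no role is settled. Only polyadenylated RNA was sequenced here, so transcripts without a poly(A) tail were not measured.

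Library totals ran from 18144117 to 18868057 counts in PZH and from 19288836 to 19917571 counts in DMSO, where 3 counts, the floor used for a gene at 0, equal 0.151 to 0.165 CPM. The coefficient of variation between libraries that edgeR estimates beyond counting noise was 8.02% in PZH and 3.58% in DMSO. Summed markers of the intestinal epithelium had 2382 to 2707 CPM in PZH and 3846 to 3913 CPM in DMSO, with CDX1 at 0 and VIL1 at or near 0 in all libraries. KRT8 gave most of that difference, with 829 to 971 CPM in PZH and 2036 to 2082 CPM in DMSO, while CDH1 of the same list went the other way, with 218 to 237 CPM in PZH and 81.6 to 92.4 CPM in DMSO. COL1A1 made up nearly all of the fibroblast sum of 16.8 to 20.3 CPM in PZH and 11.3 to 13.9 CPM in DMSO, and COL1A2 was at 0. Endothelial markers summed to 0.265 to 0.859 CPM in PZH and 1.09 to 1.58 CPM in DMSO, immune markers to 0.590 to 1.98 CPM in PZH and 0.255 to 3.11 CPM in DMSO, erythroid markers to at most 0.165 CPM in PZH and 0.552 CPM in DMSO, and germ line markers to at most 0.165 CPM in PZH and 0.255 CPM in DMSO. Neuronal markers, nearly all SYT1, summed to 80.5 to 91.2 CPM in PZH and 93.7 to 97.4 CPM in DMSO. The part of any of these in the results below was not tested.

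The symbols were set against 2 annotations. RefSeq matched 147 of the 149, 125 by symbol and 22 by an older name, and typed 145 as long noncoding. GENCODE 29 matched 146 and typed 111 as intergenic, 12 as processed transcripts, 11 as pseudogenes of several kinds, 9 as antisense, 2 as sharing a promoter with a neighbour and 1, LINC00672, as protein-coding. The label thus holds for most of the symbols by annotation, but not for all. Exon length ran from 371 to 27605 bases, with a median of 2627.5. Exons of 52 of the 146 overlapped those of another gene, 21 on the same strand and 40 on the opposite one. Whether reads were counted by strand is not stated in the labels, so reads of such partners cannot be told apart. Of the RNAs named in the text, LINC00680, LINC00707, LINC00869, LINC00888, LINC00941, LINC01002, LINC01347, LINC01578, LINC01881 and LINC02210 overlap a gene on their own strand. LINC00294, LINC00337, LINC00511, LINC00535, LINC00623, LINC00654, LINC00662, LINC00680, LINC00869, LINC01002, LINC01106, LINC01123, LINC01184, LINC01806 and LINC02086 overlap one on the opposite strand. A near-identical copy elsewhere (at least 95% identity over 200 bases) was found for 28, whose counts are uncertain.

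LINC RNAs moved in both directions in PZH. Of the 147 that could be tested, 59 rose, or 40.1%, where 39.3% of all 15006 genes tested rose. Those that fell numbered 48, or 32.7%, where 40.9% of all genes tested fell (edgeR quasi-likelihood F test, Benjamini-Hochberg adjusted p under 0.05 over all genes). The share that rose was thus close to the background and the share that fell was below it, and no test of that difference was run. That background covers genes of all levels, while most of the LINC RNAs were weakly expressed, and shares by level are given below. Without scaling factors 49 rose and 55 fell, so the balance between the directions turns with the scaling. Under that setting the median log2 fold change of all genes was -0.28, against -0.02 with TMM scaling. In bulk RNA, fewer cells that make a transcript and less of it per cell cannot be told apart.

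Changes of at least 2-fold were frequent. They were found for 44 LINC RNAs that rose, or 29.9%, where the background was 15.8%. Another 32 fell at least 2-fold, or 21.8%, where the background was 18.9%. The central 50% of log2 fold changes spanned -0.94 to 1.08 for the LINC RNAs and -0.75 to 0.64 for all genes tested, with medians of 0.06 and -0.02. PZH and DMSO libraries did not overlap for 97 of the LINC RNAs, 66.0%, of which 53 were higher and 44 lower in PZH, while 75.0% of all genes tested did not overlap. These backgrounds cover genes of all levels and were not computed by level, while most of the LINC RNAs were weakly expressed. Of the RNAs that fell, 16 lay under 0.5 CPM in PZH, and of those that rose, 10 lay under 0.5 CPM in DMSO. They met the rule through the group where they were high, so a large change in them is partly set by the rule. LINC00535 and LINC01775 had too few counts for the test, and 40 were tested but not called, 1 of them with an unadjusted p under 0.05.

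**Figure D1:**
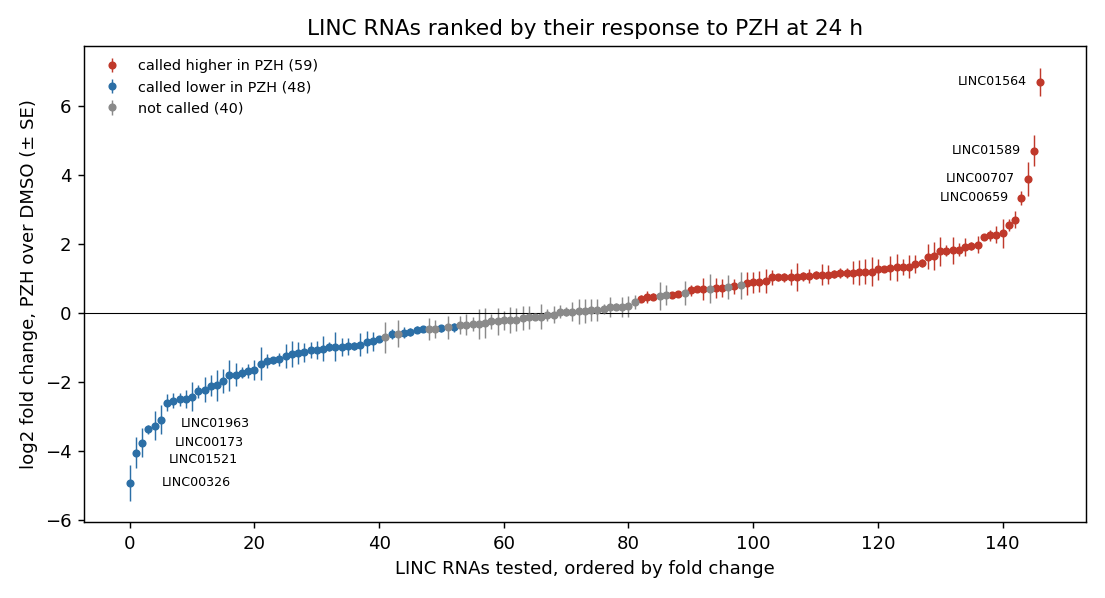
The 147 LINC RNAs tested, ordered along the horizontal axis by their log2 fold change, PZH over DMSO, on the vertical axis, with bars of 1 standard error. Red points rose (59), blue points fell (48) and grey points were not called (40), and the values run from -4.92 for LINC00326 to 6.69 for LINC01564.

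How often a LINC RNA was called moved with its level. Between 0.5 and 1 CPM, 57.4% of 47 were called, against 53.8% of all genes of that level. From 5 to 20 CPM it was 88.5% of 26, against 81.8%. Of the 9 LINC RNAs at or above 20 CPM, 6 rose and 2 fell, where 48.2% of all genes of that level rose and 39.97% fell. In each range of level a larger share rose than among all genes. It was 29.8% against 24.05% at 0.5 to 1 CPM and 50% against 33.85% at 5 to 20 CPM. The share that fell was 27.7% against 29.8% at 0.5 to 1 CPM and 36.8% against 36.5% at 1 to 2 CPM. At higher levels the share that fell was below that of all genes, and none of these shares was tested. The spread between libraries shrank along the same scale. The median coefficient of variation was 30.9% in PZH and 25.4% in DMSO for the 87 RNAs under 2 CPM, and 8.55% in PZH and 6.15% in DMSO for the 19 at 10 CPM or more. Precision was therefore lowest for the weakly expressed RNAs, which make up most of the set.

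**Figure D2:**
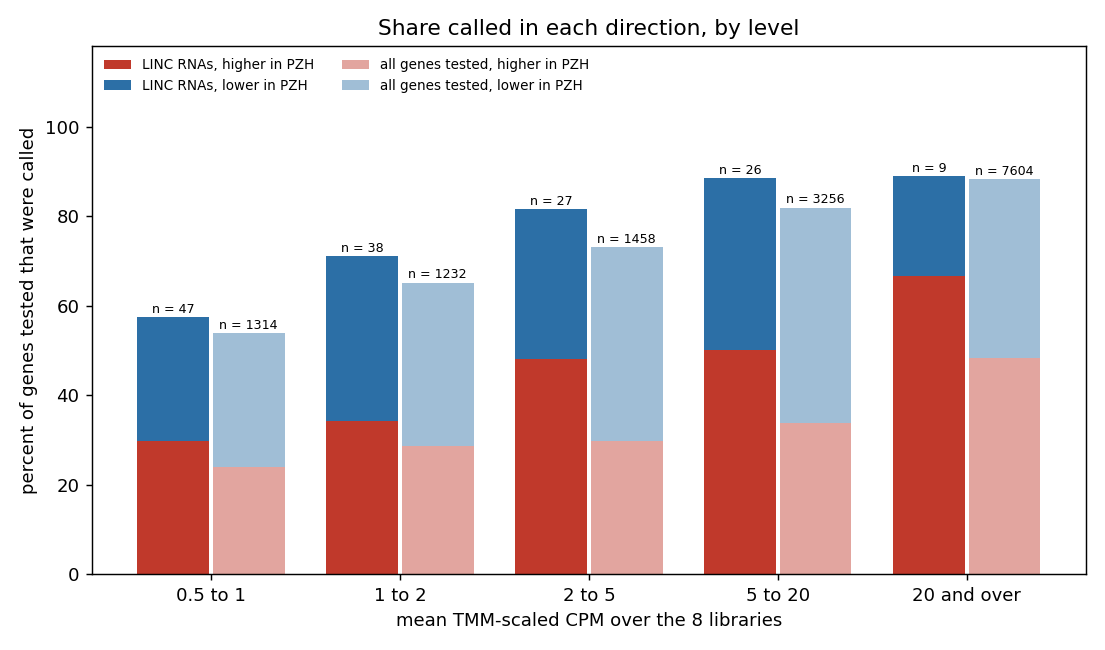
Percent of LINC RNAs (dark bars) and of all genes tested (pale bars) called higher (red) or lower (blue) in PZH, stacked, in 5 bins of mean TMM-scaled CPM over the 8 libraries. Numbers above the bars give the genes tested in each bin, and the share called grows with the level in both sets.

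Together the 149 RNAs took 0.0711 ± 0.0055% of the counts in PZH libraries and 0.0691 ± 0.0007% in DMSO libraries (SD, n = 4 each). Their sum was 662 to 779 CPM in PZH and 684 to 698 CPM in DMSO, so the groups overlapped. Within that sum the reads were less evenly spread in PZH, where the 8 RNAs with most reads in PZH held 43.8% of the member sum. In DMSO the 8 with most reads there, a partly different set, held 36.3%. PZH replicate 1 was the highest PZH library for 52 of the 149 RNAs, and replicate 4 the lowest for 50.

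Among the 8 RNAs of highest mean level over all libraries, 6 rose and 2 fell. LINC00963, first studied in prostate cancer, had the most reads, with 89.3, 84.9, 84.9 and 85.1 CPM in the 4 PZH libraries against 34.2, 36.0, 38.5 and 33.7 CPM in the DMSO libraries. All PZH libraries lay far above all DMSO libraries, a 2.42-fold rise (log2 fold change 1.27 ± 0.05, SE; edgeR adjusted p = 7.2e-16). LINC00662, an RNA studied in gastrointestinal cancers, had 46.6, 39.8, 44.0 and 39.4 CPM in PZH and 8.77, 8.43, 8.99 and 10.6 CPM in DMSO. This 4.63-fold rise was the largest among the abundant RNAs (log2 fold change 2.21 ± 0.08, edgeR adjusted p = 1.3e-16). LINC00346, which RefSeq names PRECSIT and which is known as a p53-regulated RNA of squamous carcinoma, had 51.0, 36.4, 47.9 and 33.3 CPM in PZH against 12.2, 9.70, 10.9 and 10.9 CPM in DMSO. The PZH libraries differed more among themselves than the DMSO libraries did, yet none came near the control range (3.85-fold, log2 fold change 1.95 ± 0.11, edgeR adjusted p = 3.5e-13).

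The other 3 abundant risers moved less. LINC00641 averaged 38.6 ± 7.2 CPM in PZH and 23.9 ± 0.7 CPM in DMSO (SD, n = 4 each), with 2 PZH libraries at 32.4 and 32.6 CPM and the other 2 at 42.9 and 46.4 CPM. LINC02210, which GENCODE types as a pseudogene and whose exons overlap the read-through gene LINC02210-CRHR1 on the same strand, averaged 52.0 ± 4.4 CPM in PZH and 35.6 ± 3.0 CPM in DMSO, and its reads cannot be separated from those of that gene. LINC01578, which RefSeq names CHASERR, averaged 28.5 ± 2.2 CPM in PZH and 19.9 ± 1.1 CPM in DMSO, a 1.43-fold rise. CHASERR is known for holding down the chromatin remodeller CHD2, its neighbour, in cis. The abundant pair that fell was LINC01234, a studied cancer RNA, at 31.7 ± 2.8 CPM in PZH and 43.8 ± 1.3 CPM in DMSO, and LINC00205 at 18.9 ± 4.0 CPM in PZH and 26.6 ± 1.6 CPM in DMSO. In LINC00205 the highest PZH library, at 24.4 CPM, lay just below the lowest DMSO library, at 25.0 CPM.

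**Figure D3:**
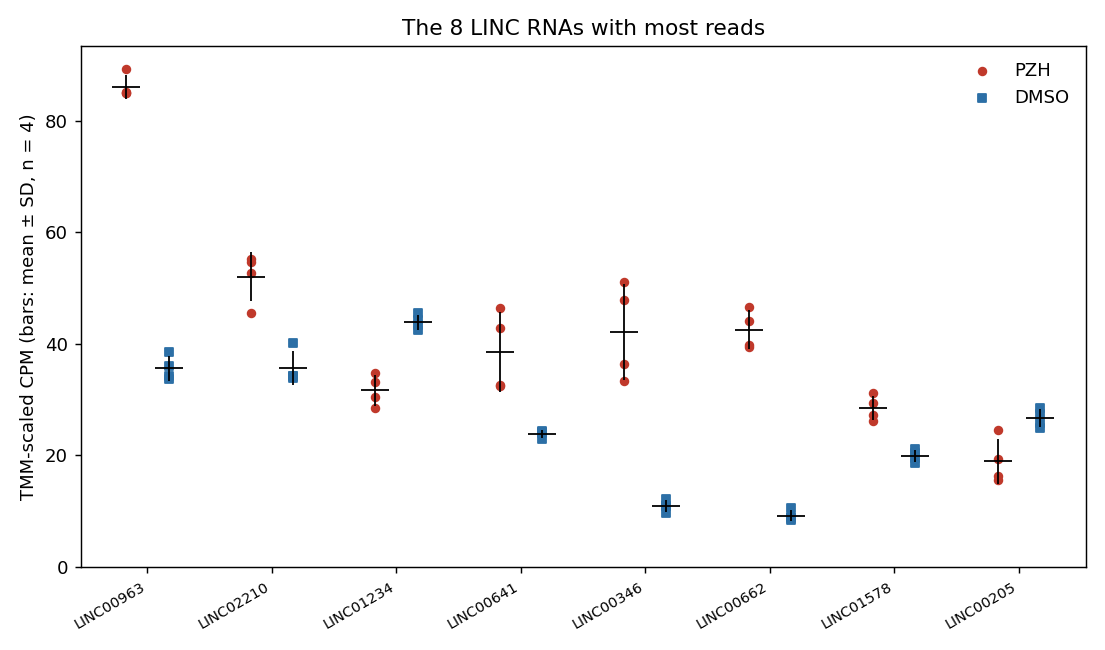
TMM-scaled CPM, in each PZH library (red circles) and each DMSO library (blue squares), of the 8 LINC RNAs of highest mean level over all libraries. Bars show the mean ± SD (n = 4). In 6 RNAs the PZH libraries lie above the DMSO libraries, and in LINC01234 and LINC00205 they lie below.

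Reads per gene depend on length, so the order changes per kilobase of exon. Per kilobase, LINC00659 stood highest in PZH, with 16.5 CPM per kb against 1.63 in DMSO. LINC01234 stood highest in DMSO at 9.78 CPM per kb, against 7.06 in PZH. LINC01963 was among the 3 highest in DMSO at 7.33 CPM per kb but had 0.708 in PZH, and LINC01564 was among the 5 highest in PZH at 7.56 CPM per kb but had 0.0620 in DMSO. LINC00963 had 6.53 CPM per kb in PZH and 2.70 in DMSO.

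Some LINC RNAs, here and in the paragraphs below, were near absent in one group. These met the rule through the group where they were high, so their direction is a description. LINC01564, annotated as antisense in GENCODE, had 290 counts over the 4 PZH libraries and 3 over the 4 DMSO libraries, a ratio of 102 after allowing for library size (95% exact interval 34.6 to 497, counting error only). Its level was 4.70, 4.25, 4.47 and 3.70 CPM in PZH against 0, 0.0473, 0.0931 and 0 CPM in DMSO (edgeR adjusted p = 9.0e-13). Its fitted fold change depends on so few control counts that it grew to 7.58 on the log2 scale, against 6.69, without DMSO replicate 3. LINC01589, also typed antisense, had 2.04, 3.01, 2.36 and 1.76 CPM in PZH against 0.0457, 0.189, 0.0931 and 0 CPM in DMSO. The DMSO levels rest on 7 counts in all, and the log2 fold change of 4.70 ± 0.45 (edgeR adjusted p = 2.2e-09) became 5.43 without DMSO replicate 2.

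LINC00659, another RNA typed antisense, was 10.1-fold higher in PZH, and its DMSO level stood well above the floor. It had 6.45, 10.4, 8.94 and 9.81 CPM in PZH and 0.959, 0.852, 0.745 and 0.956 CPM in DMSO (log2 fold change 3.33 ± 0.20, edgeR adjusted p = 3.8e-13). LINC00707 had 1.25, 1.3, 0.725 and 1.21 CPM in PZH against 0.0457, 0.0473, 0.0466 and 0.143 CPM in DMSO, where 6 counts were seen in all, and it shares same-strand exons with 3 unnamed clone genes. LINC01504 had 5.94, 3.72, 3.75 and 4.06 CPM in PZH and 0.594, 0.473, 0.792 and 0.813 CPM in DMSO, a 6.50-fold rise (edgeR adjusted p = 1.2e-09). PZH replicate 1 stood above the other PZH libraries, and all 4 stood clear of the controls. LINC01012 averaged 13.4 ± 1.5 CPM in PZH and 2.84 ± 0.74 CPM in DMSO, and LINC02323 4.69 ± 1.17 CPM in PZH and 0.969 ± 0.306 CPM in DMSO. Roles of these RNAs in colon cells are not settled.

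The remaining steep risers, LINC01881 (5.85-fold), LINC01001 (4.94-fold) and LINC02163 (3.93-fold), are uncertain. Near-identical copies cover 96.2% of the longest LINC01881 transcript, 94.8% of that of LINC01001 and 37.5% of that of LINC02163, so their reads could be split between loci. The same holds for LINC00623 and LINC00869, which rose, and for LINC01106, LINC01123 and LINC00342, which fell. LINC01106 and LINC01123 are near copies of each other, so they are not independent. With the 16 RNAs left out whose copies cover 50% or more of the transcript, and the 3 without a GENCODE match, 51 of 130 rose and 43 fell. The 130 include LINC00535 and LINC01775, which had too few counts for the test. Of all genes tested, copies included, 39.3% rose and 40.9% fell.

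The steepest fall was that of LINC00326, with 0.113, 0.118, 0 and 0 CPM in PZH against 2.74, 1.61, 1.91 and 1.67 CPM in DMSO. Only 4 counts remained over the PZH libraries, against 170 in DMSO (log2 fold change -4.92 ± 0.51, edgeR adjusted p = 8.2e-09). LINC01521 had 0, 0.177, 0.121 and 0.121 CPM in PZH and 2.15, 1.85, 1.77 and 1.48 CPM in DMSO. LINC00173 had 0.0566, 0.118, 0.121 and 0.121 CPM in PZH and 1.51, 1.23, 1.86 and 1.34 CPM in DMSO. All 3 had at most 3 counts in every PZH library and more than 1 CPM in every DMSO library. They met the rule through their DMSO level, so the direction of their change is a description.

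LINC01963 had the most reads of the 12 steepest falls. It had 2.32, 2.48, 2.54 and 1.58 CPM in PZH and 21.2, 21.8, 24.7 and 24.6 CPM in DMSO, so that it was 10.3-fold lower in PZH (log2 fold change -3.37 ± 0.13, edgeR adjusted p = 1.1e-16). LINC00652 and LINC01842 were 9.67-fold and 8.53-fold lower, each on 10 counts in PZH. LINC02458 averaged 1.24 ± 0.45 CPM in PZH and 7.08 ± 0.53 CPM in DMSO, LINC01315 0.755 ± 0.11 CPM in PZH and 4.45 ± 0.45 CPM in DMSO, LINC02086 0.606 ± 0.183 CPM in PZH and 3.70 ± 0.28 CPM in DMSO, and LINC00920 0.562 ± 0.174 CPM in PZH and 3.21 ± 0.32 CPM in DMSO. These 4 fell between 5.66-fold and 6.05-fold with no overlap between groups. LINC01468, which RefSeq names LNCAROD and which is known from breast cancer cells as an activator of the Wnt antagonist gene DKK1, had 1.02, 1.42, 0.846 and 0.969 CPM in PZH against 5.57, 4.83, 5.49 and 4.83 CPM in DMSO. It was 4.85-fold lower in PZH (edgeR adjusted p = 5.5e-10). LINC00337, the divergent transcript of ICMT, averaged 0.280 ± 0.197 CPM in PZH and 1.53 ± 0.16 CPM in DMSO. Its exons overlap those of ICMT on the opposite strand, so its reads may be partly those of that gene.

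**Figure D4:**
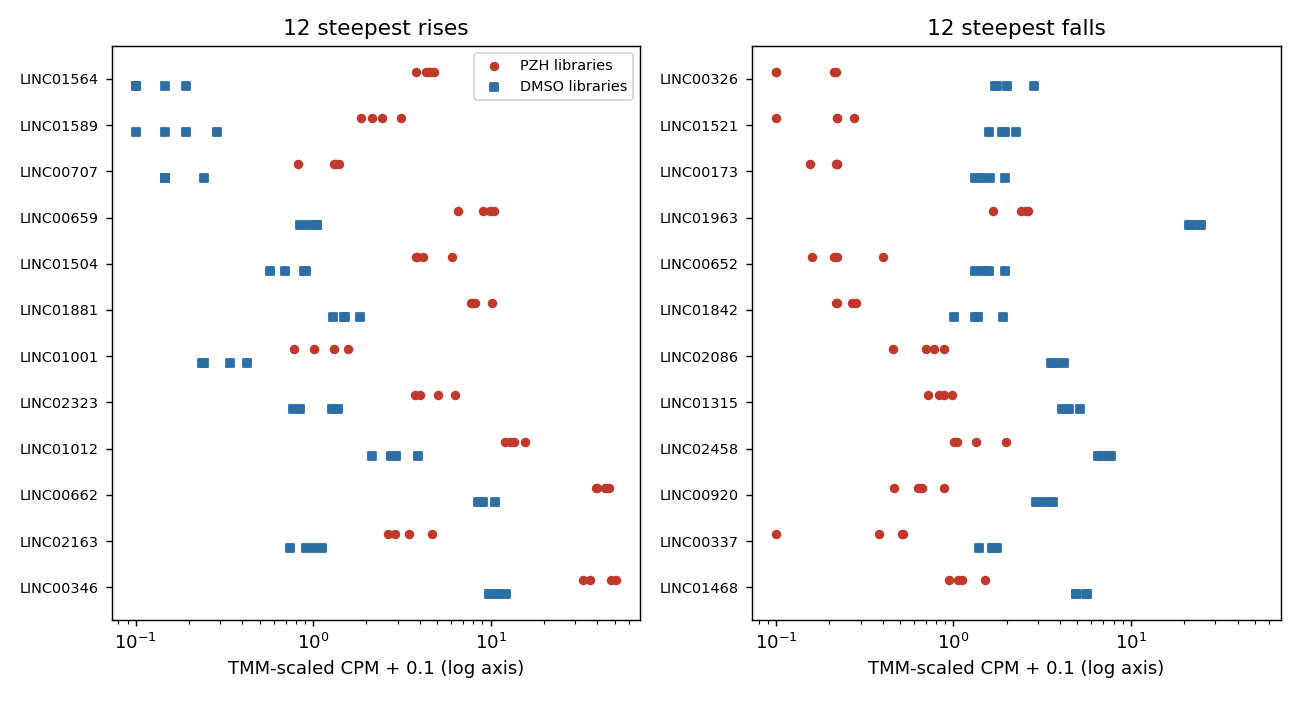
TMM-scaled CPM plus 0.1, on a log axis, of the 12 LINC RNAs with the steepest rise (left) and the 12 with the steepest fall (right) among those called whose groups do not overlap. Red circles are the 4 PZH libraries and blue squares the 4 DMSO libraries, and the symbols furthest left stand for 0 CPM.

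Presence in a group depended on the direction of change. Of the 149, 22 lay under 0.5 CPM in PZH and 16 of these fell, while 11 lay under 0.5 CPM in DMSO and 10 of these rose. Such RNAs met the rule through the group where they were high, so their direction is a description. For the 116 that had at least 0.5 CPM in both groups, 49 rose and 32 fell. Of all genes tested, without that limit, 39.3% rose and 40.9% fell, and no background with the same limit was computed. Just inside the threshold stood LINC02535 at a mean of 0.539 CPM, LINC00654 at 0.515 CPM and LINC01775 at 0.512 CPM. Just outside stood LINC00937 at 0.489 CPM, LINC00634 at 0.465 CPM and LINC01473 at 0.456 CPM.

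Of 29 LINC symbols listed as studied in cancer or as holding a small protein, 18 were in the table and 10 were among the 149, of which 5 rose and 5 fell. Among all genes tested, at all levels, 39.3% rose and 40.9% fell, and no difference from them was tested. LINC00511, a cancer RNA with many described partners, had 7.36, 7.33, 9.06 and 7.27 CPM in PZH and 18.8, 20.6, 21.6 and 19.6 CPM in DMSO, 2.60-fold lower in PZH (log2 fold change -1.38 ± 0.10, edgeR adjusted p = 1.1e-11). It overlaps an unnamed clone gene on the opposite strand. LINC00941, studied in gut cancers, moved the other way and had 10.4, 7.80, 10.03 and 10.1 CPM in PZH and 4.52, 4.40, 4.42 and 5.35 CPM in DMSO, a 2.05-fold rise with no overlap between groups. LINC00467, whose transcript is known to encode a small protein bound to mitochondrial ATP synthase in colorectal cancer, averaged 11.4 ± 0.7 CPM in PZH and 15.5 ± 2.5 CPM in DMSO and fell 1.37-fold. LINC00857 averaged 6.96 ± 0.17 CPM in PZH and 10.2 ± 0.8 CPM in DMSO and fell 1.47-fold. LINC01503 averaged 0.315 ± 0.317 CPM in PZH and 1.10 ± 0.25 CPM in DMSO, and its fall of 1.80 on the log2 scale became 2.76 without PZH replicate 4, which at 0.787 CPM stood close to the lowest control library at 0.822 CPM. LINC00460 averaged 4.29 ± 0.46 CPM in PZH and 3.11 ± 0.44 CPM in DMSO. Its rise of 0.46 on the log2 scale (edgeR adjusted p = 0.016) did not pass the threshold without DMSO replicate 4 (0.36, adjusted p = 0.068) or without scaling factors (0.20, adjusted p = 0.28).

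The 4 RNAs of highest level that were not called show how small a change could be resolved. LINC01184 had 19.2 ± 1.1 CPM in PZH and 20.9 ± 0.5 CPM in DMSO, a log2 difference of -0.12 with a 95% interval of -0.27 to 0.02. Its groups did not overlap, as the highest PZH library, at 19.98 CPM, lay just below the lowest DMSO library, at 20.3 CPM. LINC01184 passed the threshold as lower with upper quartile factors (-0.20, edgeR adjusted p = 0.021) and without scaling factors (-0.38, adjusted p = 0.00017). LINC00909 had 12.1 ± 2.3 CPM in PZH and 11.8 ± 1.3 CPM in DMSO, LINC00294 10.9 ± 0.8 CPM in PZH and 9.66 ± 0.58 CPM in DMSO, and LINC01806 8.27 ± 1.37 CPM in PZH and 7.66 ± 1.17 CPM in DMSO. Their groups overlapped, and their log2 differences lay between 0.03 and 0.17 with 95% intervals that together ran from -0.20 to 0.38.

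By annotation, the 110 tested RNAs that GENCODE types as intergenic split evenly, with 39 up and 39 down. Among 11 typed as pseudogenes 9 rose and 2 fell, and among 8 tested and typed as antisense 4 rose and none fell at the threshold of the edgeR fit. Of all genes tested, 39.3% rose and 40.9% fell. The pseudogene type includes LINC00888, at 17.8 CPM in PZH and 6.47 CPM in DMSO, and LINC01835, at 9.03 CPM in PZH and 4.04 CPM in DMSO. Near copies elsewhere make the counts uncertain for its risers LINC00674, LINC00680, LINC00869, LINC01347 and LINC01881 and for LINC00431, which fell. LINC00672, the symbol typed as protein-coding, fell to 0.426 CPM in PZH, against 1.69 CPM in DMSO. When the 52 RNAs with overlapping exons and the 3 without a GENCODE match were left out, 38 rose and 33 fell. These types came from the annotation and no difference between them was tested.

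For each RNA matched in RefSeq, the nearest protein-coding gene among those tested here was taken from the gene order on GRCh38.p14, at a median distance of 31.8 kb. Coding genes that were not tested or not matched by symbol were passed over, so another coding gene may lie closer. In 93 pairs both genes were called, 47 in the same direction and 46 in opposite directions. The same-direction share of 50.5% stands beside 54.3% for all genes tested and their nearest tested coding gene. Within 10 kb it was 12 of 21 pairs, 57.1%, against 55.4% of all genes, and beyond 100 kb 9 of 25, 36.0%, against 50.4%. Both genes of a pair were read from the same libraries, and overlapping exons can share reads.

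Pairs that moved together included 2 with a known link in cis, activation for LINC01468 and repression for LINC01578. LINC01468 and DKK1, which encodes a secreted Wnt antagonist, both fell, DKK1 to 7.52 ± 1.82 CPM in PZH against 187 ± 7 CPM in DMSO (24.8-fold lower in PZH, edgeR adjusted p = 6.9e-22). LINC01578 and CHD2 both rose, CHD2 to 379 ± 30 CPM in PZH against 111 ± 3 CPM in DMSO (3.40-fold). A joint rise is opposite in direction to the repression known for this RNA, and no link within either pair was tested here. LINC01504 rose together with ZFAND5, a zinc finger protein known to stimulate the proteasome, at 329 ± 18 CPM in PZH and 159 ± 4 CPM in DMSO. LINC00337 fell together with ICMT, the methyltransferase that finishes the processing of RAS proteins, at 58.8 ± 4.3 CPM in PZH and 163 ± 3 CPM in DMSO. LINC01521 fell with the zinc finger gene PATZ1, and LINC01963 with XRCC5, a subunit of the Ku complex of DNA end joining, at 448 ± 25 CPM in PZH and 805 ± 11 CPM in DMSO.

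The other 46 called pairs moved apart. LINC00205 fell while POFUT2, an O-fucosyltransferase gene that starts 0.157 kb away, rose to 65.7 ± 3.1 CPM in PZH against 18.9 ± 2.0 CPM in DMSO. LINC01589 rose while FBLN1, which encodes the matrix glycoprotein fibulin-1, fell to 8.13 ± 0.89 CPM in PZH against 28.6 ± 0.9 CPM in DMSO. LINC00346 rose while ANKRD10 fell to 39.4 ± 3.1 CPM in PZH against 94.4 ± 2.5 CPM in DMSO. LINC00659 rose while NTSR1, the neurotensin receptor gene, fell 1.49-fold. LINC02458 fell while DUSP6, the phosphatase that turns off ERK, rose 3.83-fold, and LINC02086 fell while the homeobox gene HOXB9 rose 3.0-fold. LINC00173 fell while MAP1LC3B2 rose to 50.3 ± 4.8 CPM in PZH against 2.50 ± 0.46 CPM in DMSO, but that gene is a near copy of MAP1LC3B, so its count is uncertain. The nearest tested coding gene of the steepest riser, LINC01564, was KLHL31, which had 0.641 ± 0.382 CPM in PZH and 1.25 ± 0.51 CPM in DMSO.

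**Figure D5:**
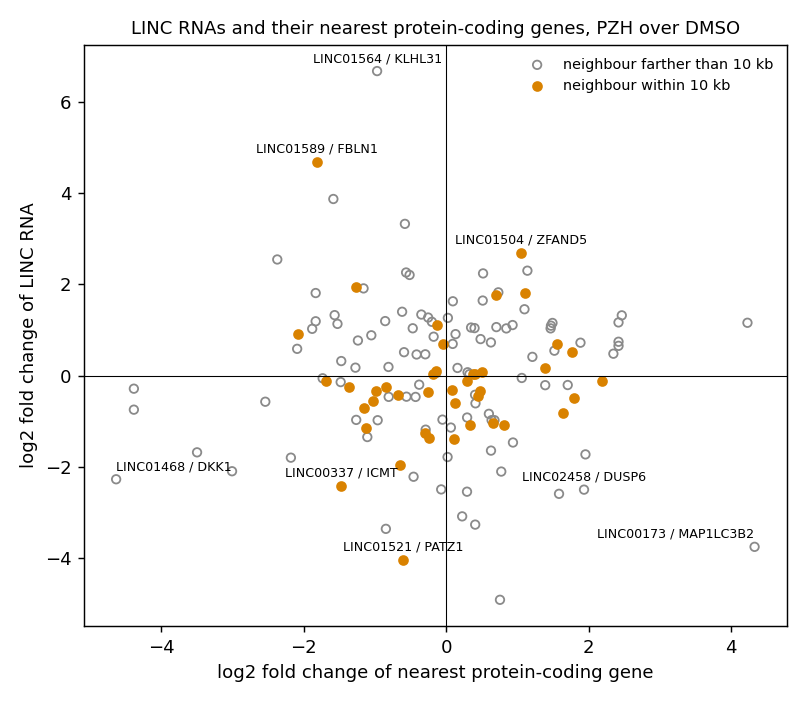
Log2 fold change, PZH over DMSO, of each tested LINC RNA (vertical axis) against that of its nearest tested protein-coding gene (horizontal axis), filled for neighbours within 10 kb. Points fall on both sides of both zero lines, with 47 called pairs in the same direction and 46 in opposite directions.

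Promoters were read from RefSeq's table on GRCh38.p14, from 250 bases before to 50 after each start, and 98 of the 149 RNAs were matched, 37 of them risers and 31 fallers. The windows below are shown because they belong to risers that hold the letters of AP-1 (TGACTCA, the site of FOS and JUN factors), together with the steepest riser and a steep faller that do not. Capitals mark TGACTCA on either strand and the core of the antioxidant response element, TGACNNNGC on either strand, the site of NRF2 with small MAF proteins. The motifs overlap wherever TGACTCA is followed by GC.
LINC00346 (chr13:110870259-110870558, minus strand): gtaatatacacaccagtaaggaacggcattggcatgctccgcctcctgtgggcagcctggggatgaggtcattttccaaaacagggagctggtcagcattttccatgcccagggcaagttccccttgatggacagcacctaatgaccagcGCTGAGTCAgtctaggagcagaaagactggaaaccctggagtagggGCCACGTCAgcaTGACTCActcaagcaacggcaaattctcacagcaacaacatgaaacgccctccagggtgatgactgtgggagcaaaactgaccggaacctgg
LINC01504 (chr9:72305186-72305485, plus strand): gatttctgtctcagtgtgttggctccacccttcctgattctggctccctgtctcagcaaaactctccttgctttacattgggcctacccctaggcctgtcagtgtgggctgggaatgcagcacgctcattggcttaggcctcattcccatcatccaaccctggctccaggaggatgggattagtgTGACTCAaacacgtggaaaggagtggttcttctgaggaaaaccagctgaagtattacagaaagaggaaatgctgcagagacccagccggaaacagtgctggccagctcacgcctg
LINC00460 (chr13:106376314-106376613, plus strand): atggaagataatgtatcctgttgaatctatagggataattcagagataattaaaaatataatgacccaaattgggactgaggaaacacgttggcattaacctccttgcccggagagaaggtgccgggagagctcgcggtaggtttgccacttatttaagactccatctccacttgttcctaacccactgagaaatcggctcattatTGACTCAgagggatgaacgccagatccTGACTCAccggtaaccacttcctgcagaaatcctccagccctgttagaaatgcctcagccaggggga
LINC02535 (chr6:85404753-85405052, minus strand): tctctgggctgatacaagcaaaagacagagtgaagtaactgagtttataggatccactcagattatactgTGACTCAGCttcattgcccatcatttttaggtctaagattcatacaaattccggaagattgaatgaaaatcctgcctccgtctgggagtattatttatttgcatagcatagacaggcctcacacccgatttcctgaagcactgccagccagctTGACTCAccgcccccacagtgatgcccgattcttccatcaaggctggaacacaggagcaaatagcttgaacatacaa
LINC00963 (chr9:129488410-129488709, plus strand): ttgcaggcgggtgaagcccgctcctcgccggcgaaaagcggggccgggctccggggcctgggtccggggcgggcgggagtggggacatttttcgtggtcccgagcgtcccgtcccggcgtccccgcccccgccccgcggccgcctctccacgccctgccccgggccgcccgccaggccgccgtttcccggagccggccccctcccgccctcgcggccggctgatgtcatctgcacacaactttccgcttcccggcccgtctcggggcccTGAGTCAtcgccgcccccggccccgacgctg
LINC01564 (chr6:53628130-53628429, plus strand): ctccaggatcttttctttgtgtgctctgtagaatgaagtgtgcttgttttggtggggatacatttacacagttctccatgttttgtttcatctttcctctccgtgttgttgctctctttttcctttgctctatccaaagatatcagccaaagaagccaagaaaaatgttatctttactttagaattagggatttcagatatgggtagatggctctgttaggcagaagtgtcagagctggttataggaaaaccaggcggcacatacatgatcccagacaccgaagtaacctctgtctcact
LINC01521 (chr22:31346509-31346808, plus strand): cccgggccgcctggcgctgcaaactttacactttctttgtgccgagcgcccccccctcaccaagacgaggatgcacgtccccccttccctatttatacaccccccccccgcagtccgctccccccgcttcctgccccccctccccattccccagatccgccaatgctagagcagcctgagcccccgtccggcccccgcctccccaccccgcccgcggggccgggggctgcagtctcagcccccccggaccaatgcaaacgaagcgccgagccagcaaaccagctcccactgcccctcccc

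In the window of LINC00346 AP-1 letters began 98 and 42 bases before the start, and the antioxidant core was found 2 times, 1 of them over the first AP-1 match. LINC00460 held AP-1 letters 44 and 17 bases before its start, LINC02535 180 and 27 bases before, and LINC01504 65 bases before. In LINC00963 the match lay downstream, 20 bases after the start, in a window rich in GC boxes. Neither motif was found in the windows of LINC01564 and LINC01521, which says only that these letters are not there.

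Over all risers, AP-1 letters were in 7 of 37 windows, 18.9%, against 1 of 31 windows of fallers, 3.23%, 1 of 30 windows of the others, 3.33%, and 4.92% of all 27305 promoters. The antioxidant core was in 10 of 37 windows of risers, 27.0%, against 2 of 31 of fallers, 6.45%, 3 of 30 of the others, 10%, and 13.6% of all promoters. The AP-1 risers not printed are LINC01001 and LINC01002, which are near copies of other genes. LINC00623 and LINC00869, counted among the risers with the antioxidant core, have near-identical copies too. LINC00346 and LINC02535 were counted for both motifs, so the counts for AP-1 and the antioxidant core are not independent. For the cyclic AMP element (TGACGTCA), the ATF4 composite element (TGATGCAA), E2F (TTTCCCGC or TTTGGCGC), the E-box (CACGTG), NF-Y (GGCCAATC or CCAATCAG), the TATA box (TATAAA) and the GC box (GGGCGG), searched on both strands, the widest gap between risers and fallers was that of the TATA box, which was in 16.2% of windows of risers and 9.68% of those of fallers, against 20% of the others and 11.95% of all promoters. The GC box was in 48.6% of windows of risers, 48.4% of those of fallers, 56.7% of the others and 44.6% of all promoters. Base composition differed too, with a median GC content of 54.0% for risers, 61.0% for fallers and 58.3% for all promoters, and its part in the motif counts was not tested.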

How the data were processed

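Per the labels' protocols, RNA was taken with Trizol, enriched for poly(A) and made into libraries with a NEBNext Ultra kit. Tools in the submitters' processing notes, listed without their roles, were HISAT2 2.1.0, StringTie 1.3.3b, DESeq 1.28.0 and FastQC 0.11.5. Genome build, annotation and strandedness: not given in the sources used here. Raw counts were deposited by the authors in 1 table, by gene symbol, with 0 columns that belong to no sample. It holds 35394 genes, 4655 of them without a count. Dates had replaced 25 symbols, which hold 0.178% to 0.220% of a library's counts and stayed in the fit.

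Genes were filtered by edgeR 4.0.16 filterByExpr (minimum count 10, minimum total 15), which left 15006, scaled with TMM and compared, PZH over DMSO, by the quasi-likelihood F test over 4 libraries a group, two-sided, at a Benjamini-Hochberg adjusted p of 0.05, in R 4.3.3. The standard error is the log2 fold change over the square root of F, and intervals are 1.96 times it. Levels are TMM-scaled CPM, except that the rule, the threshold neighbours and marker sums use unscaled CPM. Intervals of counts and floors cover counting error only. Copies were sought with BLAST 2.17.0. The test was tried on simulated data first. No pair of libraries agreed within counting noise (chi-square over its degrees of freedom 4.03 to 12.3 in PZH, 2.39 to 2.81 in DMSO).

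Members and lists were chosen with earlier results of these data known. RNAs named are the 8 of highest level, the 12 steepest called in each direction whose groups do not overlap, those of the studied list, the 4 of highest level not called, those next to the threshold and the nearest coding genes; the others named were picked after their values were seen. Alternatives were scaling by RLE, by upper quartile or not at all, 2 other filters, DESeq2 1.42.0, limma-voom (limma 3.58.1), robust edgeR, a replicate block, a threshold of 0.01, other minimum levels and each library left out.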

Additional observations from a re-analysis of the deposited data

Results flagged for a closer look

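In 13 of 86 groups of 4 libraries, over 43 named RNAs, 1 library stood apart from the other 3 by Dixon's criterion. Chance meets it in about 1 of 20 groups of normally distributed values. That rate need not hold for groups of very few counts, such as LINC00707 in DMSO and LINC00173 in PZH. Values are TMM-scaled CPM.

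Among PZH libraries, LINC00963 had 89.3 CPM in replicate 1, above 84.9 to 85.1 CPM in the others, and LINC01504 had 5.94 CPM in replicate 1, above 3.72 to 4.06 CPM. LINC00173 had 0.0566 CPM in PZH replicate 1, a single count, below 0.118 to 0.121 CPM. PZH replicate 2 was high for LINC01881, at 10.2 CPM against 7.67 to 8.09 CPM, and low for LINC00941, at 7.80 CPM against 10.03 to 10.4 CPM. PZH replicate 3 was low for LINC00707, at 0.725 CPM against 1.21 to 1.3 CPM, and high for LINC00511, at 9.06 CPM against 7.27 to 7.36 CPM. PZH replicate 4 was high for LINC01503, at 0.787 CPM against 0.113 to 0.181 CPM, and low for LINC01184, at 17.6 CPM against 19.6 to 19.98 CPM.

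Among DMSO libraries, LINC02210 had 40.1 CPM in replicate 1, above 33.8 to 34.3 CPM in the others. LINC00941 had 5.35 CPM in DMSO replicate 4, above 4.40 to 4.52 CPM, and LINC00707 had 0.143 CPM there, above 0.0457 to 0.0473 CPM. LINC01184 had 20.3 CPM in DMSO replicate 3, below 21.1 to 21.3 CPM. No single library accounts for most of these values.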

How the results depend on the processing

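The counts of 59 RNAs that rose and 48 that fell stayed within 1.5 times under every scaling, filter, test, threshold, minimum level and left-out library tried, and in 17 other fits no RNA called in one direction was called in the other. Leaving out each library in turn gave 54 to 59 that rose and 47 to 48 that fell. The replicate block gave 58 and 48. Correlations between deviations of same-numbered libraries ran from -0.006 to 0.010, so no effect shared by same-numbered libraries was seen. This cannot show whether such samples were set up as pairs, which the labels do not say. DESeq2 gave 58 that rose and 47 that fell, limma-voom 59 and 48. Over the 94 RNAs without overlapping exons, an alternative chosen after seeing the data, 38 rose, since fewer genes were counted.

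The median log2 fold change of 0.06 became -0.016 with upper quartile factors and -0.20 without scaling. Reversals were found for 3 RNAs, none of them called in the fit or the alternative: LINC00909 (0.035) at -0.038 with upper quartile factors, -0.22 without scaling and between -0.082 and 0.122 with each library left out, below 0 without PZH replicate 1 and without DMSO replicate 2, LINC00294 at -0.089 and LINC01806 at -0.15 without scaling. LINC00294 passed the threshold without PZH replicate 1 (0.24, edgeR adjusted p = 0.042). The cause was not tested. Depth limits the 87 RNAs under 2 CPM most.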

Other observations

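Other long noncoding RNAs in the same fit gave different counts, set side by side here with no test between them. The background for all of them is that 39.3% of the 15006 genes tested rose and 40.9% fell. Among genes named as antisense to another gene, 73 of 291 tested rose and 96 fell, with a median log2 fold change of -0.17. Host genes of microRNAs rose in 9 of 16 cases and fell in 5, and host genes of small nucleolar RNAs rose in 14 of 19 and fell in 2. Genes with only a clone or LOC name rose in 456 of 1181 cases and fell in 293. Of 42 well known long noncoding RNAs without a LINC symbol, 39 were in the table and 31 were tested, of which 21 rose and 7 fell. The list holds some of the host genes counted above. Of the LINC symbols under 0.5 CPM only 2 could be tested, and 1 rose and 1 fell.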
